A study of Mus musculus with 15 samples.

Results

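Axon guidance ligands and receptors were followed across 15 mouse tumors. They were chosen by gene symbol, as the semaphorins, plexins, neuropilins, Eph receptors, ephrins, Robo receptors, Slits, netrins, Unc5 genes and *Dcc*, which gave 71 of the 23329 genes in the count tables. The symbol rule itself holds no measured value, but it was set with earlier results of these data known. Of the 71 genes, 67 had over 1 CPM (reads scaled to a common library size, with TMM factors) in at least 3 tumors and were tested. The other 4, *Sema3e*, *Epha3*, *Epha6* and *Ntn5*, held 72, 87, 29 and 8 reads over all tumors together, and their highest values were 0.926, 1.75, 0.514 and 0.124 CPM. By the symbol rule the Unc5 group also holds *Unc50*, a Golgi membrane protein that is no netrin receptor, and *Unc5cl*, a death domain protein that lacks the netrin-binding part.

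The tumors came from 15 mice, with 1 RNA-seq library each. *EμMyc* lymphomas (n = 4, onset at 13 to 19 weeks) and *EμMyc/Casp2-/-* lymphomas (n = 3, onset at 8 to 12 weeks) were cervical lymph node tumors of C57BL/6 mice, which carry c-Myc under the enhancer of the immunoglobulin heavy chain, active in B lineage cells. *Th-MYCN* neuroblastomas (n = 4, onset at 10 to 21 weeks) and *Th-MYCN/Casp2-/-* neuroblastomas (n = 4, onset at 15 to 24 weeks) were paraspinal thoracic tumors of Sv129/C57BL6 mice, which express MYCN from the promoter of tyrosine hydroxylase, active in sympathetic neuroblasts. The neuroblastomas had been picked for having little or no visible blood supply. Tumor type therefore cannot be told apart from oncogene, tissue and strain, and the lymphomas without *Casp2* arose in younger mice. Libraries held 4940464 to 17638029 counted reads, and 3 reads were worth 0.170 CPM in the deepest and 0.607 CPM in the shallowest, tumor EuMycC2ko215. Of the B cell markers 6 of 6 were higher in the *EμMyc* tumors and of the neuroblast markers 8 of 8 in the *Th-MYCN* tumors, by edgeR's quasi-likelihood test with a Benjamini-Hochberg FDR under 0.05 and an over 2-fold difference, the rule for every call here.

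*Casp2*, the deleted gene, still gave reads in every tumor. It stood at 125 to 203 CPM in the *EμMyc* tumors and at 58, 51.9 and 76.1 CPM in the *EμMyc/Casp2-/-* tumors, which did not overlap (log2 fold change -1.36 ± 0.26 SE, with an FDR of 0.0536 by the quasi-likelihood and 4e-04 by the likelihood ratio test). In the neuroblastomas it stood at 76 to 125 CPM with *Casp2* and at 39.6 to 80.2 CPM without it (log2 fold change -0.79 ± 0.23 SE, with an FDR of 0.327 and 0.101 by the same tests). Whole-gene counts do not show which exons the reads came from. The study states that genotyping and immunoblotting established the deletion in every tumor.

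Axon guidance genes code for secreted and membrane-bound cues and for the receptors that read them on a growing axon. Semaphorins act through plexins, with neuropilins as co-receptors for the secreted class, Slits act through Robo receptors, netrins through *Dcc* and the Unc5 receptors, and ephrins through Eph receptor tyrosine kinases. Sympathetic neuroblasts descend from migrating neural crest cells that use several of these cues, and some members also work outside the nervous system, such as *Sema4d* on lymphocytes and *Robo4* on blood vessels.

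The family as a whole was far more abundant in the neuroblastomas. Mean expression was above 10 CPM for 44 of the 71 genes in the *Th-MYCN* and for 44 in the *Th-MYCN/Casp2-/-* tumors, against 14 in the *EμMyc* and 20 in the *EμMyc/Casp2-/-* tumors. The 35 ligands summed to 1280 to 1440 CPM in the *Th-MYCN* tumors and to 286 to 429 CPM in the *EμMyc* tumors. For the 35 receptors, among which *Unc5cl* is counted by its family and *Unc50* is not, the sums were 1700 to 2270 CPM and 477 to 799 CPM. Without *Casp2* the neuroblastomas held 1320 to 1490 CPM of ligands and 1350 to 2290 CPM of receptors, and the lymphomas 266 to 395 CPM and 447 to 729 CPM. Neither sum of any neuroblastoma came down to that of any lymphoma.

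Markers of other cell types were compared between the tumor types as well. *Sox10*, a transcription factor of Schwann cells and their precursors, named here after its values were seen, was at 8.86, 8.43, 22.7 and 8.83 CPM in the *Th-MYCN* tumors and between 0.175 and 1.70 CPM in the *EμMyc* tumors, and it was called lower in the lymphomas of both genotypes (log2 fold change -4.06 ± 0.68 SE, FDR 0.000102, and -6.71 ± 0.93 SE, FDR 1.88e-05). All 8 T cell markers were higher in the lymphomas in both genotypes. Fibroblast and pericyte markers summed to 210 to 588 CPM in the neuroblastomas and to 380 to 1410 CPM in the lymphomas, with 2 of 7 called higher in the *EμMyc* and 1 in the *EμMyc/Casp2-/-* lymphomas. Of the macrophage markers 6 were measured, and they summed to 210 to 462 CPM and to 231 to 818 CPM, with 1 of 6 called higher in the lymphomas of each genotype. Of all tested genes 18.3% were called higher in the *EμMyc* and 19.7% in the *EμMyc/Casp2-/-* lymphomas. The counts of fibroblast, pericyte and macrophage markers were near those shares. The part of any of these cell types in the values of the members was not tested.

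Per length of exon, the most abundant members of the *Th-MYCN* tumors were *Efnb3* (50.2 CPM per kb), *Plxnb2* (43.1 CPM per kb), *Plxna3* (40.4 CPM per kb) and *Nrp2* (34.2 CPM per kb). In the *EμMyc* tumors they were *Plxnb2* (44.1 CPM per kb), *Unc50* (36.9 CPM per kb), *Sema4b* (20.9 CPM per kb) and *Sema4d* (16.4 CPM per kb). The median member stood at 3.13 CPM per kb in the *Th-MYCN* and at 0.361 CPM per kb in the *EμMyc* tumors.

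**Figure D1:**
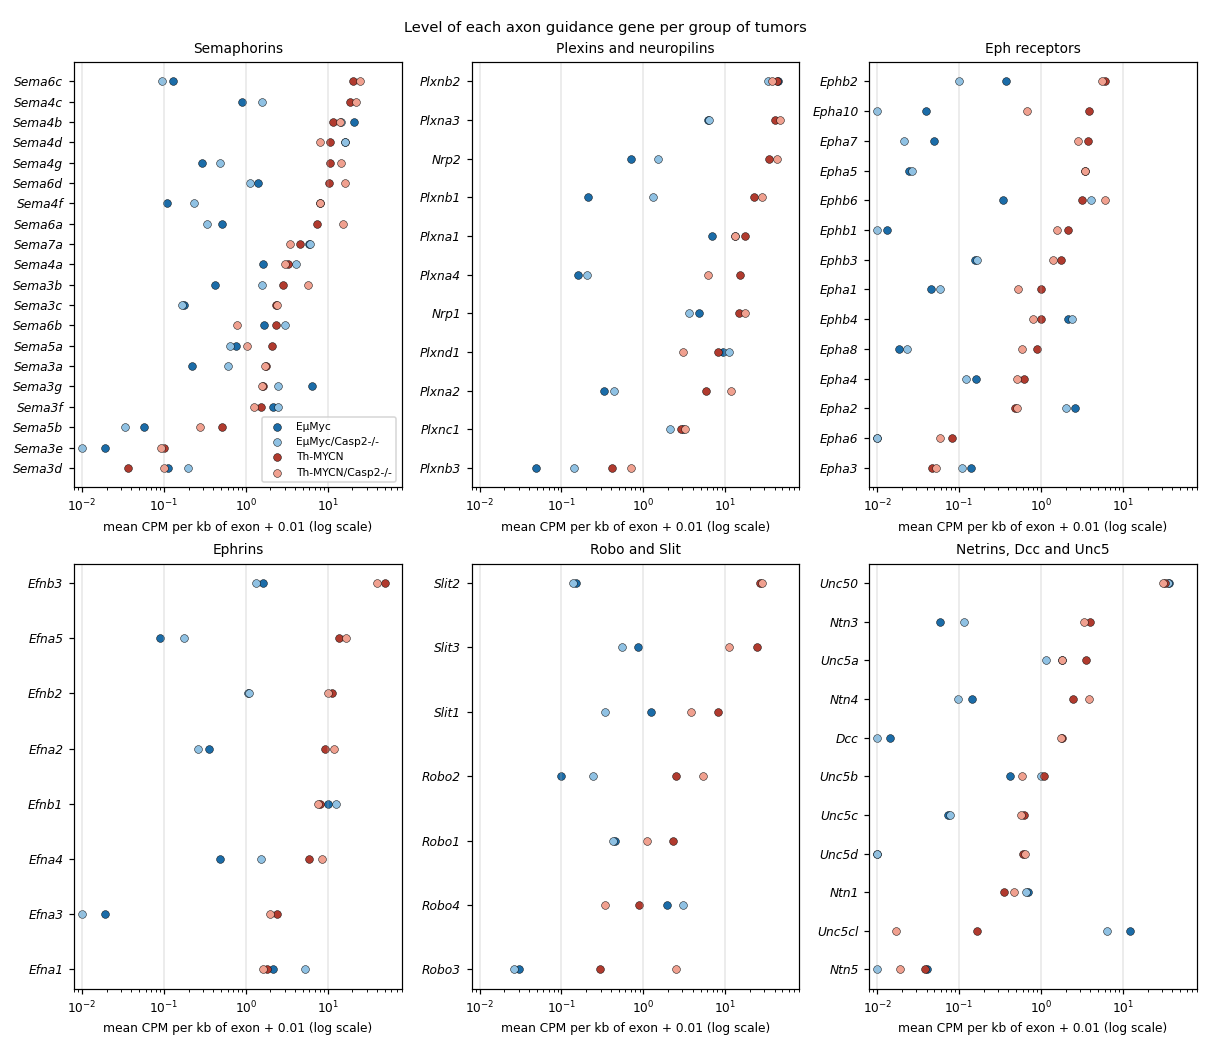
Mean expression of the 71 axon guidance genes in each group, in CPM per kb of exon plus 0.01 on a log axis, by family. Red points (neuroblastomas) lie to the right of blue points (lymphomas) for most genes, while *Plxnb2*, *Unc50*, *Efnb1* and *Sema4b* lie close together and *Unc5cl* and *Epha2* are reversed.

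Between *EμMyc* and *Th-MYCN* tumors, 45 of the 67 tested members were lower in the lymphomas, 4 were higher and 18 were not called. Over all 14880 tested genes the share called was 27.8% lower and 18.3% higher, 46.1% together. The median log2 fold change (*EμMyc* minus *Th-MYCN*) was -3.32 over the members and -0.04 over all tested genes. For 43 members every *EμMyc* tumor lay below every *Th-MYCN* tumor and for 3 above, where 32.9% and 26.4% of all tested genes did so. By role, 22 of 33 tested ligands (median -3.42) and 23 of 33 tested receptors (median -3.32) were lower.

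The comparison of *EμMyc/Casp2-/-* with *Th-MYCN/Casp2-/-* tumors used other mice. In it 39 members were lower in the lymphomas and 8 higher, against 26.6% and 19.7% of all tested genes, 46.4% together. The median log2 fold change was -3.07 over the members and -0.05 over all tested genes. For 39 members every lymphoma lay below every neuroblastoma and for 5 above, where 31.2% and 23.6% of all tested genes did so. Of the 67 members 62 had the same sign in both comparisons, 38 were lower in both and 3 were higher in both. Of all tested genes 89% had the same sign, 23.6% were lower in both and 15.2% were higher in both. Across the 67 genes, which are no independent replicates, Pearson's r of the log2 fold changes was 0.948, and across all tested genes it was 0.924.

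**Figure D2:**
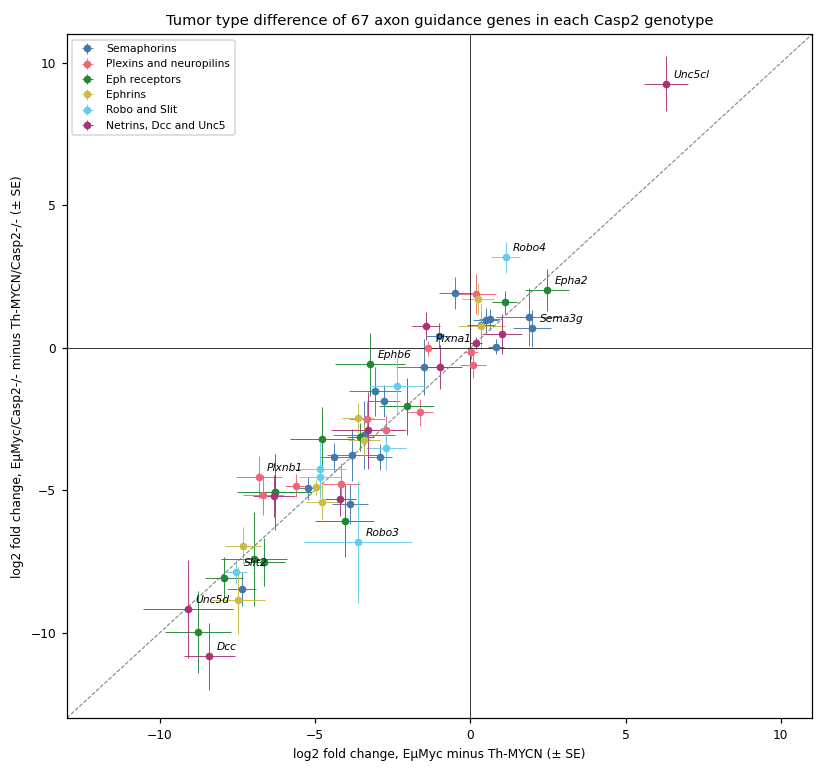
Log2 fold change between lymphoma and neuroblastoma for the 67 tested members, in the *Casp2* wild type tumors (x axis) and in the *Casp2-/-* tumors (y axis), with bars for the standard error and a dashed line of equality. Most points lie below 0 on both axes and near the line, and *Unc5cl* stands alone at the upper right. Values are fitted ones, which for genes with few reads in a group depend on the prior count.

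Among the semaphorins, the largest family of cues, 11 of 19 tested genes were lower in the *EμMyc* tumors and 1 was higher. *Sema6c*, a transmembrane semaphorin (chr3:95160457-95174024, plus strand, GRCm38), was at 118, 71.2, 59.7 and 80.4 CPM in the *Th-MYCN* tumors and at 0.962, 0.342, 0.315 and 0.319 CPM in the *EμMyc* tumors (log2 fold change -7.37 ± 0.48 SE, FDR 4.78e-09). In the *Casp2-/-* tumors it was at 84.1, 90.2, 116 and 108 CPM in the neuroblastomas and at 0.781, 0.25 and 0 CPM in the lymphomas (log2 fold change -8.47 ± 0.60 SE). No lymphoma of either genotype came near a neuroblastoma. *Sema4f*, *Sema4g*, *Sema4c*, *Sema6a*, *Sema6d* and *Sema3c* were lower in the lymphomas as well, by log2 fold changes of -6.29, -5.23, -4.38, -3.87, -2.90 and -3.80 without and -5.06, -4.94, -3.83, -5.47, -3.82 and -3.77 with loss of *Casp2*.

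The other 7 tested semaphorins, *Sema3d*, *Sema3f*, *Sema4b*, *Sema4d*, *Sema5a*, *Sema6b* and *Sema7a*, were not called between the wild type groups. *Sema4b* was the most abundant semaphorin of the *EμMyc* tumors per length, at 80.3, 79.0, 51.6 and 126 CPM against 48.7, 47.4, 51.1 and 42.3 CPM in the *Th-MYCN* tumors, without overlap, and its log2 fold change of 0.83 ± 0.26 SE (FDR 0.011) was under the 2-fold limit of a call, which it passed without tumor EuMyc829 (1.02, FDR 0.00233). *Sema4d*, which binds plexin-B1 and, on B cells, CD72, was at 87.7, 119, 64.9 and 39.6 CPM and at 41.1, 50.3, 62.8 and 47.0 CPM (log2 fold change 0.63 ± 0.34 SE, FDR 0.119). It was called higher only between the *Casp2-/-* tumors (log2 fold change 1.00 ± 0.36 SE, FDR 0.0265), at the edge of the 2-fold limit, and without tumor EuMycC2ko239 that value was 0.57 (FDR 0.189). The call held in 8 of 15 fits that each left out 1 tumor. It was lost with sex as a covariate (FDR 0.0575) and without tumor MYCNC2ko176 (0.82, FDR 0.0768). The difference fell just under 2-fold, and the call was lost, by DESeq2 and with its size factors. The same happened without the low-count filter and with reads on either strand. *Sema7a*, a membrane-anchored semaphorin of lymphocytes and neurons, was not called in either comparison (0.33 ± 0.45 SE and 0.79 ± 0.48 SE).

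*Sema3g*, a secreted semaphorin that binds neuropilin-2, was called higher in *EμMyc* tumors (log2 fold change 2.0 ± 0.61 SE, FDR 0.0102), at 35.0, 65.2, 4.17 and 12.9 CPM against 5.38, 4.72, 11.1 and 8.15 CPM. The groups overlapped, and without tumor EuMyc743b the log2 fold change was 1.25 (FDR 0.0662). Between the *Casp2-/-* tumors it was 0.68 ± 0.64 SE. *Sema3a*, the secreted repellent that acts through neuropilin-1, was lower in the *EμMyc* tumors (-3.07 ± 0.83 SE, FDR 0.00475) and not called between the *Casp2-/-* tumors (-1.53 ± 0.86 SE, FDR 0.141), where tumor MYCNC2ko176 carried the difference with 31.2 CPM and the value without it was -0.04 (FDR 0.963). *Sema4a* was called lower only between the wild type groups (-1.01 ± 0.42 SE, FDR 0.0485), and that call held in 3 of 15 fits that each left out 1 tumor. *Sema6b*, another transmembrane class, was called higher only between the *Casp2-/-* lymphomas and neuroblastomas (1.92 ± 0.57 SE, FDR 0.00952), and without tumor EuMycC2ko215 it was 1.25 (FDR 0.0687). Whether these differences themselves differ between the genotypes is what the interaction tests.

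Among the receptors of semaphorins, 8 of 11 plexins and neuropilins were lower in the *EμMyc* tumors and 3 were not called. *Plxnb1*, the receptor of *Sema4d* (chr9:109095389-109119917, plus strand), was at 245, 171, 189 and 178 CPM in the *Th-MYCN* tumors and at 1.31, 2.22, 1.5 and 1.91 CPM in the *EμMyc* tumors (log2 fold change -6.81 ± 0.75 SE, FDR 1.54e-06). *Nrp2*, a co-receptor of secreted semaphorins and of VEGF-C, was at 398, 369, 358 and 294 CPM and at 7.26, 11.4, 5.98 and 4.25 CPM (log2 fold change -5.61 ± 0.37 SE, FDR 5.15e-09). The groups were far apart for both genes. *Plxna4*, *Plxna2*, *Plxna3* and *Nrp1*, which form receptor complexes for class 3 semaphorins, followed with log2 fold changes of -6.67, -4.17, -2.72 and -1.64.

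*Plxnb2*, a widely expressed plexin that binds class 4 semaphorins, was among the 2 most abundant members per length in the *EμMyc*, *EμMyc/Casp2-/-* and *Th-MYCN* tumors. It was at 236, 398, 231 and 294 CPM in the *EμMyc* tumors and at 241, 314, 286 and 290 CPM in the *Th-MYCN* tumors. The log2 fold change was 0.04 ± 0.21 SE (FDR 0.899), with a 95% interval of -0.38 to 0.45, and its sign turned with the scaling of the libraries. *Plxna1* was called lower only between the wild type groups (-1.37 ± 0.25 SE, FDR 0.000195, against -0.03 ± 0.26 SE between the *Casp2-/-* groups). *Plxnd1*, a plexin of endothelial cells, was called higher only between the *Casp2-/-* groups (1.89 ± 0.71 SE, FDR 0.0321, against 0.19 ± 0.65 SE), and without tumor EuMycC2ko215 it was 0.96 (FDR 0.262). The call was also lost without tumor MYCNC2ko118, MYCNC2ko144 or MYCNC2ko176 (FDR 0.0687, 0.0797 and 0.0677).

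**Figure D3:**
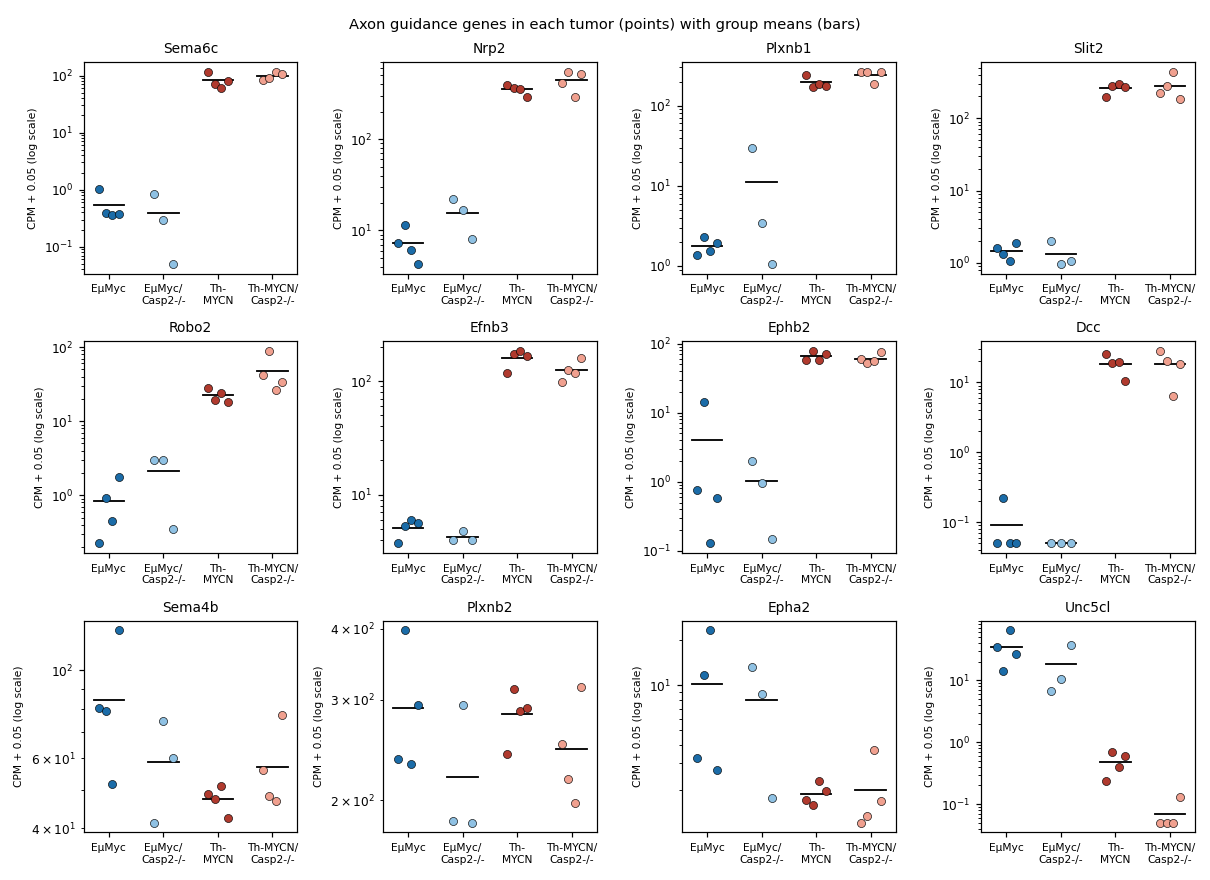
Expression of 12 members in every tumor, in CPM plus 0.05 on a log axis, with bars for the group means. The first 8 genes separate the neuroblastomas from the lymphomas in both genotypes. *Plxnb2* overlaps in both, and *Sema4b* and *Epha2* overlap in the *Casp2-/-* tumors only. *Epha2* and *Unc5cl* have higher means in lymphomas.

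Eph receptors and ephrins, which signal between touching cells, were lower in the *EμMyc* tumors for 9 of 12 tested receptors and for 6 of 8 ligands. *Efnb3* (chr11:69554092-69560205, minus strand), a transmembrane ephrin and the most abundant member per length in *Th-MYCN* tumors, was at 117, 173, 184 and 166 CPM there and at 3.67, 5.22, 5.91 and 5.52 CPM in the *EμMyc* tumors (log2 fold change -4.97 ± 0.23 SE, FDR 1.83e-10). *Efna5*, *Efna2* and *Efna4*, which are held to the membrane by a lipid anchor, were lower by -7.34, -4.77 and -3.62. *Efna3*, of the same class, was called lower from 1 read over the *EμMyc* tumors, with a ratio of *Th-MYCN* to *EμMyc* of 261 (95% counting interval 46.5 to 10300). *Efna3* had 0 reads in every *EμMyc/Casp2-/-* tumor and was at least 43.5-fold higher in the *Th-MYCN/Casp2-/-* tumors, counting 3 reads over the group as its limit.

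*Efna1*, *Efna3* and *Efna4* are neighbors on the minus strand of chromosome 3 (GRCm38), with 32.8 kb between *Efna1* and *Efna3* and 10.4 kb between *Efna3* and *Efna4*. *Efna1* did not share the difference of the other 2. It was at 5.51, 3.94, 3.62 and 2.65 CPM in the *EμMyc* tumors and at 4.40, 3.56, 3.12 and 2.16 CPM in the *Th-MYCN* tumors (log2 fold change 0.25 ± 0.53 SE, FDR 0.701). Between the *Casp2-/-* groups it was called higher in lymphomas (1.70 ± 0.56 SE, FDR 0.0173), with 19.8 CPM in tumor EuMycC2ko239 and 6.84 and 2.12 CPM in the others, and without that tumor it was 0.65 (FDR 0.313). *Efnb1*, an X-linked ephrin, ranged from 3.08 to 101 CPM over the *EμMyc* tumors and from 24.4 to 27.9 CPM over the *Th-MYCN* tumors (log2 fold change 0.35 ± 0.76 SE, FDR 0.713).

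Of the Eph receptors, *Ephb2* was the most abundant per length in the *Th-MYCN* tumors, at 57.5, 78.1, 57.7 and 69.7 CPM. In the *EμMyc* tumors it was at 0.7, 14.5, 0.0787 and 0.531 CPM (log2 fold change -4.05 ± 0.95 SE, FDR 0.00175), and without the high one, EuMyc743b, the log2 fold change was -7.24. *Epha5* and *Epha7* were lower in the *EμMyc* tumors by -7.93 and -6.63. *Ephb1* and *Epha10* were called lower as well, from 1 and 3 reads over the *EμMyc* tumors, with ratios of *Th-MYCN* to *EμMyc* of 622 (95% counting interval 111 to 24600) and 154 (52.5 to 749). *Epha2*, an Eph receptor best known from epithelia, went the other way and was called higher in both comparisons. It was at 3.24, 11.7, 23.3 and 2.66 CPM in the *EμMyc* tumors against 1.65, 1.52, 2.25 and 1.92 CPM in the *Th-MYCN* tumors (log2 fold change 2.47 ± 0.72 SE, FDR 0.00755, and 2.03 ± 0.75 SE between the *Casp2-/-* groups). Without tumor EuMyc829 the first value was 1.68 (FDR 0.0428). The *Casp2-/-* groups overlapped for *Epha2*, at 13.3, 8.68 and 1.72 CPM in the lymphomas against 1.15 to 3.66 CPM in the neuroblastomas. *Ephb6*, which lacks kinase activity, was called lower between the wild type groups (-3.24 ± 1.13 SE, FDR 0.0217), a call that was lost without tumor EuMyc743b (FDR 0.0562) or EuMyc829 (FDR 0.0578). Between the *Casp2-/-* groups it was not called (-0.59 ± 1.10 SE), and without tumor EuMycC2ko215 it was (-5.87, FDR 6.16e-05). *Ephb4*, the venous receptor of ephrin-B2, was the other Eph receptor called higher in both (1.10 ± 0.39 SE and 1.59 ± 0.42 SE).

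In the Slit and Robo pathway, *Slit2* (chr5:47983138-48307733, plus strand) was the most abundant ligand per length after *Efnb3* in the *Th-MYCN* tumors (26.2 CPM per kb). It was at 196, 281, 301 and 273 CPM there, at 220, 281, 441 and 181 CPM in the *Th-MYCN/Casp2-/-* tumors, and between 0.918 and 1.95 CPM in all 7 lymphomas. The log2 fold changes were -7.54 ± 0.35 SE (FDR 2.05e-10) and -7.86 ± 0.42 SE (FDR 1.26e-09). *Slit3* (-4.84 and -4.27), *Slit1* (-2.72 and -3.53) and the receptor *Robo2* (-4.85 and -4.55) were lower in lymphomas in both comparisons. *Robo1* was called lower between the wild type groups only (-2.37 ± 0.89 SE, FDR 0.0308, against -1.33 ± 0.96 SE). The call was lost in 5 of 15 fits that each left out 1 tumor, and without tumor EuMyc614 the log2 fold change was -3.58. *Robo3*, the midline Robo, held 3 reads over the *EμMyc/Casp2-/-* tumors and was called lower there (FDR 0.0123). The ratio of neuroblastoma to lymphoma was 134 (95% counting interval 45.6 to 650). In the *Th-MYCN/Casp2-/-* tumors MYCNC2ko118 and MYCNC2ko144 held 176 and 585 reads, and MYCNC2ko176 and MYCNC2ko180 held 5 and 8. That call was lost with sex as a covariate (FDR 0.092). Between the wild type groups (-3.62 ± 1.73 SE) the FDR was 0.0824 by the quasi-likelihood test, 0.039 by the likelihood ratio test, 0.0244 by DESeq2 and 0.0287 with reads on either strand. MYCN175 carried that difference, with 91 reads against 1, 1 and 2 in the other *Th-MYCN* tumors, and with sex as a covariate it was -0.43 (FDR 0.854).

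*Robo4*, the Robo receptor of blood vessels, was the most abundant of the Slit and Robo genes per length in the *EμMyc* tumors. It was at 5.77, 16.6, 9.92 and 7.22 CPM there and at 6.60, 5.16, 4.04 and 2.22 CPM in the *Th-MYCN* tumors (log2 fold change 1.13 ± 0.48 SE). Its FDR there was 0.0533 by the quasi-likelihood test, 0.0411 by the likelihood ratio test and 0.0451 by DESeq2, it was called higher also with sex as a covariate, with reads on either strand, with only the 2 groups and in 5 of 15 fits that each left out 1 tumor, and without tumor EuMyc743b the log2 fold change was 0.76. Between the *Casp2-/-* groups, at 26.8, 12.3 and 7.27 CPM against 1.15, 1.16, 2.12 and 2.36 CPM, it was called higher as well (3.18 ± 0.54 SE, FDR 0.000135). Endothelial markers moved the same way. Of 7, 5 were called higher in the *EμMyc* and 6 in the *EμMyc/Casp2-/-* lymphomas than in the neuroblastomas of the same genotype, none was at 0 in any tumor, and *Pecam1* was the most abundant in all but 1 tumor. Their sums were 136 to 279 CPM in the *EμMyc*, 190 to 248 CPM in the *EμMyc/Casp2-/-*, 55.9 to 89.4 CPM in the *Th-MYCN* and 24.7 to 39.4 CPM in the *Th-MYCN/Casp2-/-* tumors. *Pecam1* alone gave 74.6 to 137 CPM of the sum in the *EμMyc* and 17.95 to 27.0 CPM in the *Th-MYCN* tumors. Taken singly, 2 of the 7 markers had every *EμMyc* above every *Th-MYCN* tumor, where 26.4% of all tested genes did. Between the *Casp2-/-* groups 6 of the 7 did so, where 23.6% of all tested genes did. The part of endothelial cells in the *Robo4* and *Plxnd1* values was not tested. In bulk tumor RNA fewer cells of a type cannot be told apart from less RNA per cell.

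Among netrins and their receptors, *Dcc*, the attractive netrin receptor, was at 25.4, 18.7, 19.4 and 10.3 CPM in the *Th-MYCN* tumors, while of the *EμMyc* tumors only EuMyc743b had any read (0.171 CPM). Those 2 reads gave a ratio of *Th-MYCN* to *EμMyc* of 418 with a 95% counting interval of 116 to 3460 (FDR 1.18e-06). In the *EμMyc/Casp2-/-* tumors it had 0 reads, and it was at least 172-fold higher in the *Th-MYCN/Casp2-/-* tumors (28.1, 20.1, 6.36 and 18.4 CPM). *Unc5d*, a repulsive netrin receptor, had 0 reads in all 7 lymphomas. It was at least 84.6-fold higher in the *Th-MYCN* tumors (0.55 to 12.0 CPM) and at least 54.6-fold higher in the *Th-MYCN/Casp2-/-* tumors (1.83 to 9.25 CPM). Of the ligands, *Ntn3* and *Ntn4* were lower in the lymphomas (-6.32 and -4.19 between the wild type groups), and *Ntn1*, the best-known netrin, was not called (1.02 ± 0.65 SE).

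*Unc5cl* (chr17:48454901-48539714, plus strand), which signals through its death domain in innate immunity, had the largest difference in favor of lymphomas. It was at 34.6, 14.3, 63.9 and 26.6 CPM in the *EμMyc* and at 6.64, 10.6 and 36.8 CPM in the *EμMyc/Casp2-/-* tumors, and between 0.183 and 0.654 CPM in the *Th-MYCN* tumors. The log2 fold change was 6.31 ± 0.71 SE (FDR 1.92e-06). The *Th-MYCN/Casp2-/-* tumors held 1 read in all, which gave a ratio of lymphoma to neuroblastoma of 1010 with a 95% counting interval of 181 to 40100 (FDR 1.02e-06). *Unc50* was nearly level, at 38.5 to 62.9 CPM in the *EμMyc* and 39.5 to 60.4 CPM in the *Th-MYCN* tumors (0.19 ± 0.20 SE). *Unc5b*, a netrin receptor also found on endothelium, and *Unc5c* were called lower between the wild type groups (-1.42 ± 0.46 SE, FDR 0.0144, and -3.28 ± 1.21 SE, FDR 0.0287) and not between the *Casp2-/-* groups. There *Unc5b* was called higher without tumor EuMycC2ko245 (1.21, FDR 0.0174). *Unc5c* was called lower there by the likelihood ratio test (-2.97, FDR 0.0427), by DESeq2 (-3.05, FDR 0.0246) and with only the 2 groups in the fit (-2.86, FDR 0.0362). It was also called lower without tumor MYCN175 (-2.92, FDR 0.0322). With sex as a covariate it was not called (-1.38, FDR 0.439). For *Unc5c* tumor MYCN175 decided the value between the wild type groups, with 19.7 CPM against 1.09 to 1.33 CPM in the other *Th-MYCN* tumors, and without it the log2 fold change was -1.05 (FDR 0.396). The call was also lost with sex as a covariate (-1.71, FDR 0.288) and without tumor EuMyc614, EuMyc743b or EuMyc829 (FDR 0.0643, 0.0646 and 0.07).

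A further 66 genes of the pathway carry guidance signals into the cell or act beside these receptors. Of 64 tested, 43 were lower and 5 higher in the *EμMyc* tumors, and 36 were lower and 9 higher between the *Casp2-/-* groups. Of all tested genes 27.8% were lower and 18.3% higher in the first comparison, and 26.6% and 19.7% in the second. All 5 collapsin response mediators, the cytosolic proteins that pass semaphorin signals to microtubules, were lower in the *EμMyc* tumors, from *Dpysl5* (-10.52 ± 0.47 SE) to *Dpysl2* (-3.25 ± 0.19 SE). So were the growth cone protein *Gap43* (-9.95 ± 0.71 SE), the Slit pathway GTPase-activating protein *Srgap3* (-6.77 ± 0.62 SE) and the netrin receptor *Neo1* (-5.71 ± 0.25 SE). The actin-binding *Ablim1* was higher in the *EμMyc* tumors (4.71 ± 0.44 SE), with *Vasp* (1.59 ± 0.18 SE), *Rock1* (1.65 ± 0.25 SE) and *Pak2* (1.00 ± 0.23 SE), which regulate actin in many cell types.

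Both oncogenes of these models code for factors that bind the E-box CACGTG, so the promoters of the members were read for these letters, which are their own reverse complement. RefSeq promoters (GRCm38.p6, 250 bases before to 50 after a start) were found for 61 of the 71 members, 77 promoters in all. The letters stood in 5 of them (6.49%), for *Sema6d*, *Epha8*, *Sema3e*, *Sema4b* and *Robo2*, and in 7.15% of all 32851 promoters. The 250 bases before the start are shown for 1 gene higher in neuroblastomas, *Sema6d*, and for the most abundant semaphorin of the *EμMyc* tumors, *Sema4b*, which has another start without the letters. Both are on the plus strand, *Sema6d* at chr2:124089719-124089968 and *Sema4b* at chr7:80198338-80198587, with the E-box in capitals.
Sema6d: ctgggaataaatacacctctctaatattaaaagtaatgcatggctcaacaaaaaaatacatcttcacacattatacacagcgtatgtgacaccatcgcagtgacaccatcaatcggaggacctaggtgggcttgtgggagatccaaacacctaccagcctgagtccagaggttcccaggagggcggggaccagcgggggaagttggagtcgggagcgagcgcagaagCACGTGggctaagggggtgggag
Sema4b: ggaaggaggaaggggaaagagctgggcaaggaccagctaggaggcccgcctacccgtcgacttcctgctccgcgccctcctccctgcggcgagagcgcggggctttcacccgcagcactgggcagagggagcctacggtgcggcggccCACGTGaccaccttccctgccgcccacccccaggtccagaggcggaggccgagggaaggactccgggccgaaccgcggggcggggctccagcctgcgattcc
A match is a string of letters and not a binding site.

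Loss of *Casp2* in the neuroblastomas changed no member past the threshold. By the quasi-likelihood test 0 of 67 were called, against 0.0336% of all tested genes, and 8 had an unadjusted p under 0.05, where 6.77% of all tested genes did. The likelihood ratio test called 1, against 0.813% of all tested genes, and DESeq2 called 0, against 0.784% of the genes to which it gave an adjusted p. The median log2 fold change (*Th-MYCN/Casp2-/-* minus *Th-MYCN*) was -0.09 over the members and -0.002 over all tested genes. The groups did not overlap for 5 members that were lower without *Casp2* (*Plxna1*, *Plxnd1*, *Epha10*, *Unc5b* and *Unc5cl*) and 1 that was higher (*Ntn4*), where 3.68% and 2.94% of all tested genes did so.

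*Unc5cl* had the smallest p of the members, at 0.183, 0.654, 0.346 and 0.556 CPM in the *Th-MYCN* tumors and with reads in 1 of the 4 *Th-MYCN/Casp2-/-* tumors (0.0812 CPM). That 1 read gave a ratio of *Th-MYCN* to *Th-MYCN/Casp2-/-* of 22.1 (95% counting interval 3.64 to 905), with an FDR of 0.294 by the quasi-likelihood and 0.0308 by the likelihood ratio test. Most of these values are close to the worth of a few reads. *Epha10*, an Eph receptor without kinase activity, was at 2.69, 5.88, 27.3 and 3.21 CPM and at 1.51, 1.80, 1.35 and 2.11 CPM (-2.52 ± 0.78 SE, FDR 0.392), and without tumor MYCN332 the log2 fold change was -1.21. *Sema6b* (-1.59 ± 0.54 SE, FDR 0.466) and *Plxna4* (-1.33 ± 0.49 SE, FDR 0.56) had overlapping groups, and without tumor MYCN175 the value of *Plxna4* was -0.72.

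*Robo4*, *Plxnd1* and *Unc5b*, which are found on endothelium among other cells, are given here because of their values, and none was called. Other members known from blood vessels had smaller log2 fold changes, with 0.23 ± 0.41 SE for *Nrp1*, -0.16 ± 0.45 SE for *Efnb2*, -0.06 ± 0.59 SE for *Sema3g* and -0.30 ± 0.39 SE for *Ephb4*. *Robo4* was at 6.60, 5.16, 4.04 and 2.22 CPM with and at 1.15, 1.16, 2.12 and 2.36 CPM without *Casp2* (log2 fold change -1.41 ± 0.50 SE, FDR 0.495). *Plxnd1* was at 36.8, 76.4, 32.5 and 79.7 CPM and at 18.5, 14.1, 18.6 and 32.3 CPM (-1.43 ± 0.66 SE, FDR 0.733). *Unc5b* was at 7.57, 6.10, 6.00 and 5.87 CPM and at 2.95, 3.60, 2.41 and 4.55 CPM (-0.92 ± 0.45 SE, FDR 0.777). Of these 3 genes the groups overlapped for *Robo4* only.

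The sum of the 7 endothelial markers was 89.4, 60.8, 58.4 and 55.9 CPM in the *Th-MYCN* tumors and 30.5, 27.3, 24.7 and 39.4 CPM in the *Th-MYCN/Casp2-/-* tumors. All 7 had a lower fitted mean without *Casp2*, 4 of them without overlap. None was called by the quasi-likelihood test, and the likelihood ratio test called 2, *Pecam1* (-1.20 ± 0.21 SE, with an FDR of 0.000552 by that test) and *Kdr* (-1.47 ± 0.35 SE, with an FDR of 0.0308 by that test). No marker was at 0 in any tumor, and *Pecam1* was the most abundant in 7 of the 8 neuroblastomas. The part of the endothelial share in the values of the 3 members was not tested.

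**Figure D4:**
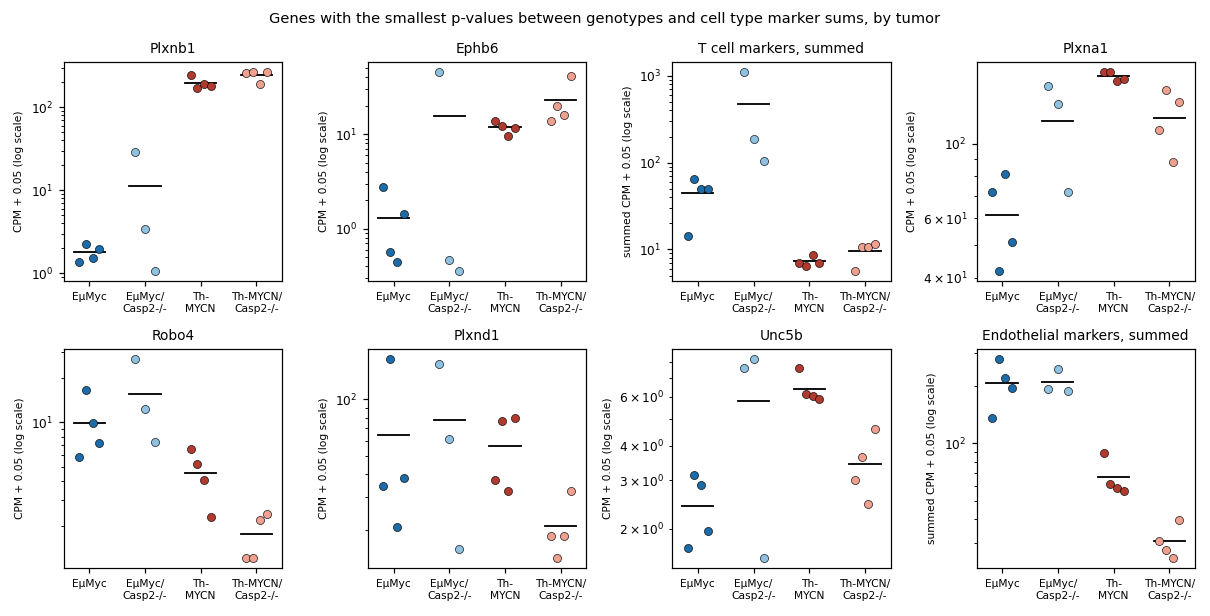
Members with small p-values between genotypes, and the summed T cell and endothelial markers, in every tumor in CPM plus 0.05 on a log axis, with bars for the group means. In the upper row 1 *EμMyc/Casp2-/-* tumor is high for *Plxnb1*, *Ephb6* and the T cell markers, and in the lower row the *Th-MYCN/Casp2-/-* tumors are low for *Robo4*, *Plxnd1*, *Unc5b* and the endothelial markers.

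Loss of *Casp2* in the lymphomas likewise changed no member past the threshold. Of 67 members 0 were called, against 0.141% of all tested genes, and 12 had an unadjusted p under 0.05, where 8.53% of all tested genes did. The likelihood ratio test called *Plxnb1*, against 1.44% of all tested genes, and DESeq2 called *Sema3b*, against 1.4% of the genes with an adjusted p. The median log2 fold change (*EμMyc/Casp2-/-* minus *EμMyc*) was 0.03 over the members and -0.03 over all tested genes. No member had all *EμMyc/Casp2-/-* tumors below the *EμMyc* tumors, and 2 had them above, *Plxnb3* and *Sema4g*, against 1.96% and 1.75% of all tested genes. When tumor EuMycC2ko245 was left out, 2 members were called, *Plxnb1* (log2 fold change 3.16, FDR 0.0163) and *Plxna1* (1.18, FDR 0.0341), and the number of all genes called higher went from 14 to 148.

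A single tumor carried the largest of these differences. *Plxnb1* was at 1.31, 2.22, 1.5 and 1.91 CPM in the *EμMyc* tumors and at 29.3, 3.34 and 1.01 CPM in the *EμMyc/Casp2-/-* tumors, of which EuMycC2ko215 was the high one. The log2 fold change was 2.60 ± 0.72 SE (FDR 0.223, and 0.0119 by the likelihood ratio test), and without that tumor it was 0.37. *Ephb6*, an Eph receptor without kinase activity that is known from T cells, was at 2.71, 0.513, 0.394 and 1.38 CPM and at 45.7, 0.417 and 0.303 CPM (3.60 ± 1.19 SE, FDR 0.333), and without the same tumor it was -1.75. For both genes the other *EμMyc/Casp2-/-* tumors lay within or near the range of the *EμMyc* tumors.

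EuMycC2ko215 stood apart in other ways. It was the shallowest library, with 4940464 counted reads, had 11.2% of its reads unmapped against 2.26 to 3.89% in the other tumors, and came from the only female among the mice with lymphoma. Its 8 T cell markers summed to 1110 CPM, against 189 and 105 CPM in the other *EμMyc/Casp2-/-* tumors and 14.2 to 64.9 CPM in the *EμMyc* tumors. All 8 had reads there, and *Cd8a* was the most abundant with 362 CPM. Its 6 macrophage markers summed to 818 CPM, the highest of all 15 tumors, against 426 and 231 CPM in its group, with *C1qa* the most abundant at 272 CPM and none at 0. The part of both cell types in the *Plxnb1* and *Ephb6* values was not tested.

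*Plxna1*, a receptor of class 3 semaphorins, differed in 2 of the 3 tumors. It was at 71.7, 41.8, 81.3 and 51.1 CPM in the *EμMyc* tumors and at 148, 131 and 71.9 CPM in the *EμMyc/Casp2-/-* tumors (log2 fold change 0.93 ± 0.26 SE, FDR 0.231), and without EuMycC2ko215 the value was 0.74. *Sema3b*, a secreted semaphorin described as a tumor suppressor, was at 1.40, 0.941, 1.26 and 2.55 CPM and at 10.2, 2.34 and 4.85 CPM (1.89 ± 0.56 SE, FDR 0.262 and 0.0486 by DESeq2), and without EuMycC2ko215 the value was 1.24. *Efna4* (1.69 ± 0.52 SE, FDR 0.298) and *Nrp2* (1.09 ± 0.34 SE, FDR 0.302) completed the 5 smallest p-values. The value of *Efna4* was 2.32 without EuMyc614 and 1.18 without EuMycC2ko239. The groups overlapped for all 4 genes.

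The interaction asks whether the effect of *Casp2* loss differed between the tumor types, and 0 of 67 members were called for it, against 0.0538% of all tested genes. At an unadjusted p under 0.05 there were 7, where 7.57% of all tested genes passed. The likelihood ratio test called 1, against 0.914% of all tested genes, and DESeq2 called 1, against 0.832%, and it was *Plxna1* in both. Its interaction was 1.34 ± 0.35 SE on the log2 scale (FDR 0.318 by the quasi-likelihood test, 0.0462 by the likelihood ratio test and 0.0457 by DESeq2). In the neuroblastomas *Plxna1* was at 163, 164, 153 and 155 CPM with and at 110, 144, 88.2 and 133 CPM without *Casp2*, which did not overlap (-0.42 ± 0.24 SE), and in the lymphomas it stood higher without *Casp2*. *Unc5b* (2.19 ± 0.67 SE, FDR 0.389), *Sema6b* (2.40 ± 0.78 SE, FDR 0.443), *Robo4* (2.05 ± 0.71 SE, FDR 0.483) and *Plxnb1* (2.27 ± 0.91 SE, FDR 0.593) came next. Without EuMycC2ko215 the interaction of *Plxnb1* was 0.05, that of *Sema6b* 1.67 and that of *Robo4* 1.42.

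*Dcc* was at 25.4, 18.7, 19.4 and 10.3 CPM in the neuroblastomas with and at 28.1, 20.1, 6.36 and 18.4 CPM in those without *Casp2* (log2 fold change -0.02 ± 0.51 SE, FDR 1). *Plxnb1* was at 245, 171, 189 and 178 CPM against 261, 267, 189 and 264 CPM (0.32 ± 0.56 SE, FDR 0.999). *Ephb6* was at 13.9, 12.2, 9.58 and 11.5 CPM with and at 13.7, 19.9, 16.0 and 41.6 CPM without *Casp2* (0.95 ± 1.00 SE, FDR 0.982), with overlapping groups for all 3 genes. *Ephb6* and *Epha1* lie on chromosome 6, 644.5 kb and 76 kb from *Casp2* (GRCm38), and so near the altered allele. *Epha1*, at 8.00, 1.89, 2.19 and 1.48 CPM with and 1.73, 0.45, 3.38 and 1.38 CPM without *Casp2*, was not called between neuroblastomas either (-0.98 ± 0.81 SE, FDR 0.957).

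Tumors of the same group had a wider spread in these genes than in the median gene. The median SD of log2 CPM was 0.459 over the tested members in the *Th-MYCN* and 0.473 in the *Th-MYCN/Casp2-/-* tumors, against 0.254 and 0.34 over all tested genes. In the *EμMyc* tumors it was 0.657 against 0.396 and in the *EμMyc/Casp2-/-* tumors 0.921 against 0.515. Depth and level differ between members and other genes, so these are descriptions only.

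In the neuroblastomas the widest range was that of *Robo3*, a receptor that steers axons across the midline. It was at 5.56, 0.0726, 0.0577 and 0.124 CPM in the *Th-MYCN* and at 12.7, 37.6, 0.482 and 0.65 CPM in the *Th-MYCN/Casp2-/-* tumors, so that 3 of the 8 tumors held nearly all its reads (log2 fold change 3.13 ± 1.42 SE, FDR 0.715). *Plxna2* was high in MYCN175 (163.5 CPM) and in 3 *Th-MYCN/Casp2-/-* tumors (160, 159 and 141 CPM), and stood at 22.9 to 58.1 CPM in the other 4. *Slit3* ranged from 43.6 to 213 CPM with and from 12.9 to 141 CPM without *Casp2*.

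MYCN175 was the highest of its group for 28 of the 67 tested members, where it was the highest for 30.3% of all tested genes. MYCN332 was the highest of the group for 26 members and 29.6% of all tested genes, so the count was not particular to MYCN175. *Plxna4* was at 398 CPM there and at 94.1 to 165 CPM in the rest of the group, *Epha4* at 11.1 CPM and 1.04 to 1.98 CPM, and *Unc5c* at 19.7 CPM and 1.09 to 1.33 CPM. It was the lowest for *Ephb1* (1.59 CPM against 13.0 to 23.4 CPM) and *Sema6b* (2.99 CPM against 10.8 to 12.1 CPM). These genes were picked here for their spread.

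**Figure D5:**
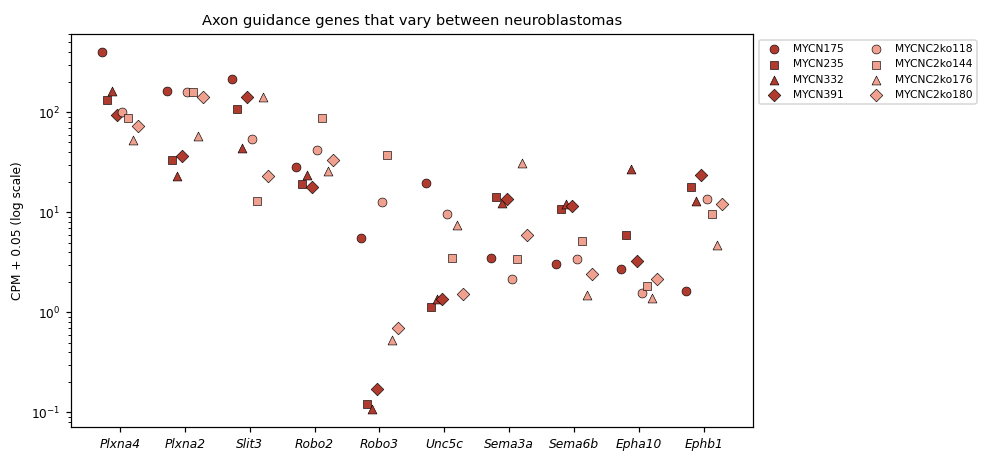
Expression of 10 members, picked for their spread, in each of the 8 neuroblastomas, in CPM plus 0.05 on a log axis. Dark red points are *Th-MYCN* and light red points *Th-MYCN/Casp2-/-* tumors, with 1 marker shape per tumor in each group. *Robo3* is above 5 CPM in 3 tumors only, and MYCN175 is the highest of its group for *Plxna4*, *Plxna2*, *Slit3* and *Unc5c*.

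In the lymphomas EuMyc743b was the highest of the *EμMyc* group for 31 of the 67 members, where it was the highest for 26.2% of all tested genes. *Ephb2* was at 14.5 CPM there and at most 0.7 CPM in the rest of the group, *Plxnd1* at 164 CPM and 20.8 to 38.0 CPM, and *Unc5a* at 18.9 CPM and 2.01 to 5.28 CPM. It also had the highest sum of endothelial markers of all 15 tumors, 279 CPM, and the highest sums of its group for macrophage markers (766 CPM against 254 to 459 CPM) and T cell markers (64.9 CPM against 14.2 to 50.1 CPM). The part of these cells in its values was not tested.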

How the data were processed

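The labels describe poly(A) RNA from 15 tumors, each of a separate mouse, sequenced as single-end reads. Per the labels and the study's methods, the authors checked the reads with FastQC, aligned them with STAR to mm10 (GRCm38) and deposited unnormalized read counts per gene symbol for each strand setting. Tool versions and the annotation release are not given in the sources used here. A further *EμMyc/Casp2-/-* tumor of the study is not analysed here.

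The second-strand counts were used. They held 48.8 to 49.3% of stranded reads, so the libraries carry no strand, and reads of a gene and of an antisense partner cannot be told apart. Exons of 13 of the 71 members overlap other genes (GENCODE vM21), none over 25% of their length. The 4 rows of each file that name no gene were left out of library sizes, and they held among others 2.26 to 11.2% of reads as unmapped and 15 to 24.2% as multimapping.

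Of 23329 genes 14880 passed the filter of over 1 CPM in 3 or more tumors. A 4-group model of all 15 tumors with TMM scaling was fitted in edgeR 4.0.16 (limma 3.58.1, R 4.3.3) and tested by quasi-likelihood, with Benjamini-Hochberg FDR over all tested genes. The study used edgeR's likelihood ratio test, which is an alternative here. A call needed an FDR under 0.05 and an over 2-fold difference. The SE was the log2 fold change divided by the square root of F. The procedure was also tested on simulated data, and no outcome of that is reported here. Alternatives were the likelihood ratio test, DESeq2 1.42.0, its size factors, other low-count filters, only the 2 groups compared, sex (from the study's list of tumors), reads on either strand and leaving out each tumor.

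The 21 replicate pairs differed by a chi-square of 16.2 to 76 per degree of freedom, so no library was a copy of another. Levels per kb used the summed exon length. At 0 reads the limit was 3 reads, and for groups with 1 to 3 reads the ratio of pooled CPM was given with an exact binomial interval. Both cover counting error only. Named were, per family, the largest calls in each direction between *EμMyc* and *Th-MYCN* tumors and the most abundant members of both, the 5 smallest p-values of each genotype comparison and of the interaction, members called by the likelihood ratio test between genotypes, members called in 1 of the 2 tumor type comparisons, and *Plxnb1*, *Dcc*, *Ephb6* and *Sema3b*. Others were named after their values were seen. The Schwann cell marker list as a whole is not reported here. The members, lists and tests were chosen with earlier results of these data known.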

Additional observations from a re-analysis of the deposited data

Results flagged for a closer look

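For 34 named members, the highest and the lowest tumor of each group of 4 were set against the rest by Dixon's ratio of gap to range of log2 CPM (critical value 0.829), and 11 values were past it. Chance gives about 1 in 20 groups, a rate that does not apply here, since 4 of the 11 come from groups with 3 tumors at 0, where the ratio is 1 by construction, and the members were partly named for their values. No interaction was called.

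MYCN175 stood apart from the other *Th-MYCN* tumors for 5 genes. It was low for *Sema6b* (2.99 CPM, next 10.8 CPM) and *Sema3a* (3.42 CPM, next 12.5 CPM). It was high for *Unc5b* (7.57 CPM, next 6.1 CPM), *Robo3* (5.56 CPM, next 0.124 CPM) and *Unc5c* (19.7 CPM, next 1.33 CPM). Among the *Th-MYCN/Casp2-/-* tumors MYCNC2ko176 was low for *Plxnb1* (189 CPM, next 261 CPM), and MYCNC2ko180 alone had reads of *Unc5cl* (0.0812 CPM).

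Of the *EμMyc* tumors, EuMyc614 was high for *Sema6c* (0.962 CPM, next 0.342 CPM). EuMyc829 alone had reads of *Ephb1* (0.0787 CPM), and EuMyc743b alone had reads of *Efna3* (0.0855 CPM) and *Dcc* (0.171 CPM). The last 3 values and that of *Unc5cl* are below the worth of 3 reads in their libraries.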

How the results depend on the processing

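Of 1429 values of 63 gene results under the alternatives, 1334 kept their direction and their side of the threshold, 48 lost a call, 27 gained one and 20 changed sign, none of them called. Counts of members between tumor types moved by over 1.5 times only when single tumors were left out. Members higher in the *EμMyc* tumors were 4 and ranged from 2 (without EuMyc743b) to 6, and those higher between the *Casp2-/-* groups were 8 and ranged from 5 (without EuMycC2ko215 or EuMycC2ko239) to 10.

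Genotype calls depended on the test. All genes called higher and lower in the neuroblastomas without *Casp2* were 1 and 4, with 28 and 93 by the likelihood ratio test, 33 and 83 by DESeq2 and 0 higher with only the 2 groups. In the lymphomas they were 14 and 7, with 170 and 45, 161 and 42, and 0 and 1, and with sex as a covariate 6 and 3. For the interaction they were 5 and 3, with 108 and 28 by the likelihood ratio test, 98 and 25 by DESeq2, and 3 higher with sex and 2 higher with reads on either strand. Of the members, the likelihood ratio test called 1 in the neuroblastomas, 1 in the lymphomas and 1 for the interaction, and DESeq2 called 0, 1 and 1. Leaving out 1 tumor gave 0 to 3 higher and 2 to 22 lower in the neuroblastomas (22 without MYCN175), 6 to 148 and 3 to 16 in the lymphomas (148 without EuMycC2ko245), with 0 to 2 members, and 3 to 26 and 1 to 4 for the interaction.

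Signs turned for values near 0 or carried by 1 tumor. *Plxnb2* between wild type groups was -0.019 by DESeq2 and -0.019 with its size factors, -0.14 with sex, and -0.15 to 0.16 with 1 tumor left out. *Efnb1* was -0.003 with sex and -1.28 to 0.72 with 1 tumor left out, and *Plxnd1* -0.85 to 0.50. Between the *Casp2-/-* groups *Plxna1* was 0.04 with only the 2 groups and -0.16 to 0.22 with 1 tumor left out, and *Ephb6* -5.87 to 0.072. Between genotypes *Dcc* was -0.29 to 0.28 in the neuroblastomas and -2.83 to 0 in the lymphomas, where it held 2 reads in all, and *Ephb6* -1.75 to 4.36 in the lymphomas. The cause was not tested. No paired analysis was possible because the tumors carry mouse numbers that no 2 groups share. *Robo3* passed the filter in 12 of 15 fits. In a single tumor 3 reads were worth 0.170 to 0.607 CPM, and values below that worth in their library rest on fewer than 3 reads. Over a group the limit of 3 reads was lower, at 0.0663 CPM for the *EμMyc* and 0.111 CPM for the *EμMyc/Casp2-/-* tumors.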
